A study of Mus musculus with 6 samples.

Results

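The 10 genes described here encode RNA-binding proteins that shape neuronal messenger RNA: Elavl2 and Elavl3, Rbfox1, Rbfox2 and Rbfox3, Nova1 and Nova2, Srrm4, and Ptbp1 and Ptbp2. They were chosen by symbol, through the Ensembl identifier of each row and GENCODE M21, from the 48526 genes of the count table, and all 10 were found. RNA was sequenced from neural progenitor cells made from mouse embryonic stem cells (mESCs) and collected on day 8 of differentiation. The control group is 3 libraries of 1 mESC line labelled flox/flox for Dmrta2, a line in which the labels name no deletion, and the other group is 3 libraries of 1 line labelled -/- for Dmrta2. Genotype and line cannot be told apart, because each genotype is 1 line, and p-values reflect variation among what the submitters call biological replicates of 1 line. Every culture of either genotype received LDN193189 (100 nM, a BMP receptor inhibitor) and SB431542 (10 µM, which blocks the type I receptors of activin and TGF-beta) until day 4. XAV939 (1 µM, a Wnt pathway inhibitor) was given until day 6, and cells were replated on day 5. Cyclopamine (1 µM, a Hedgehog pathway inhibitor) is listed from day 2 until day 10, an end day after the collection on day 8.

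Cells change their splicing programme as they become neurons. Ptbp1 is abundant in progenitors and represses neuronal exons, including an exon that its own paralog Ptbp2 needs for a stable transcript, and Ptbp2 takes over in young neurons. Srrm4 activates very short neuronal exons (microexons) and an exon of Rest that disables this repressor of neuronal genes. Nova proteins and Rbfox proteins bind short motifs in introns and exons and switch neuronal exons on or off, and the neuronal Elavl proteins bind U-rich RNA, where they act on splicing, stability and translation. Counts per gene do not separate spliced forms, so the values below are levels of the regulators and not of the exons they act on.

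Promoters are shown for the gene with the largest fitted rise, Srrm4, for Elavl3, and for the gene that fell, Ptbp1. They run from 250 bases before to 50 bases after a start site, from RefSeq on GRCm38.p6. Capitals mark CAGNTG on either strand, an E-box form that proneural factors of the bHLH class can bind.
Srrm4, chr5:116591768-116592067, minus strand: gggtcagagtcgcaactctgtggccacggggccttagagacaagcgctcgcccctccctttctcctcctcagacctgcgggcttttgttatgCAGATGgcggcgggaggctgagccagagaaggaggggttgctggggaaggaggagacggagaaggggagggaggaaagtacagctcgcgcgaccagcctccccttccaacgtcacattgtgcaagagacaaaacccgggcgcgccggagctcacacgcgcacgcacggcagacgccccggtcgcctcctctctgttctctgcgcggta
Elavl3, chr9:22051974-22052273, minus strand: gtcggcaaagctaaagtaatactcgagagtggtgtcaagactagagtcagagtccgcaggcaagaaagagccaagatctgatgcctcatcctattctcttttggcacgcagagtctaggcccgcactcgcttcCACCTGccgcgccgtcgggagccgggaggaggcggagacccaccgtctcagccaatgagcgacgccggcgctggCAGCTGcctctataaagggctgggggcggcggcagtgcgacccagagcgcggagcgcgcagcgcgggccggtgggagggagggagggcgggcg
Ptbp1, chr10:79854182-79854481, plus strand: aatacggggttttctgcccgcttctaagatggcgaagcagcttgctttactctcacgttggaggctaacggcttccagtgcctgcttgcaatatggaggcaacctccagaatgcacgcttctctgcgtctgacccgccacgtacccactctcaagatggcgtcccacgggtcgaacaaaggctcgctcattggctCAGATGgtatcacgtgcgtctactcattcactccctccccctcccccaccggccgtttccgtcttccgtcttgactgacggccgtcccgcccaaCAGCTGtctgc
The motif occurred 1 time in the window of Srrm4 and 2 times in each of the others, so the gene that fell held it as well. The 9 members with a RefSeq promoter (all but Rbfox2) had 15 windows, of which 9 held it, beside 51.4% of 32851 promoters of the same length. Several windows of Elavl2 overlap, so the same bases are counted more than once among the 15. Nova2 and Ptbp2 had none in theirs. A match describes letters and is not a measured binding site.

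The libraries held between 24565560 and 39646793 counts each, and all 10 members were tested among 20549 genes, with at least 26 reads in every library. Libraries are named by genotype and the letter of their column, and the main test below does not pair them by letter. Levels are in CPM, the count scaled to a common library size after TMM scaling, a correction for library composition, and "rose" or "fell" means an adjusted p under 0.05 in edgeR's quasi-likelihood test with Benjamini-Hochberg adjustment over all tested genes. Dmrta2 itself lay at 75.1 to 85.2 CPM in the controls and at 409 to 439 CPM in the libraries labelled -/-. A count over the whole gene does not show which part was deleted and checks nothing about the deletion, so every direction below is that of the libraries labelled -/-. Genes of chromosome 11 were shifted upward as a group, with a median log2 fold change 0.516 above that of all other genes, which touches Rbfox3 among the members. In bulk RNA, more cells of a type and more RNA per cell cannot be told apart.

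In the libraries labelled -/-, 7 of the 10 genes rose, Ptbp1 fell, and Rbfox2 and Ptbp2 did not pass. The background was 17.9% of tested genes rising and 17.4% falling. The median log2 fold change of the 10 was 1.00, beside -0.0025 over all tested genes. The groups did not overlap for the 7 that rose, where 25.5% of all tested genes were higher without overlap, nor for Ptbp1, where 25.4% were lower without overlap. Without flox/flox A or without flox/flox B, 4 rose and 0 fell. The 4 that rose whichever single library was left out were Elavl2, Nova1, Nova2 and Srrm4. Without -/- B, 6 rose and 0 fell.

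**Figure D1:**
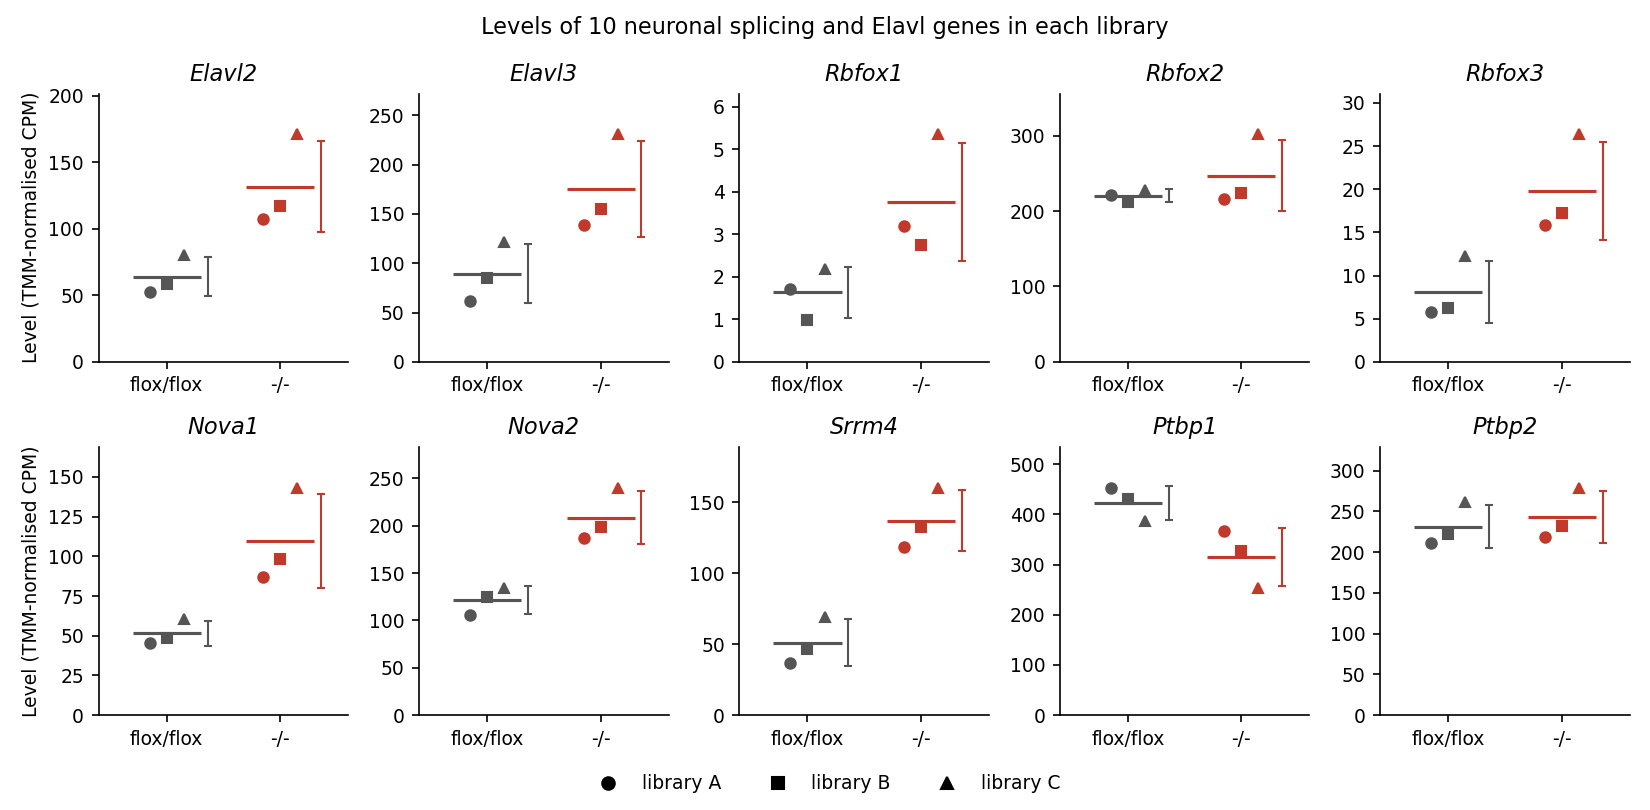
Level of each of the 10 genes in TMM-normalised CPM (vertical axes, from 0) in the 3 flox/flox libraries (grey) and the 3 labelled -/- (red). Symbols are libraries A, B and C, horizontal lines are means and bars beside them 1 SD. Library C is the highest of its group for every gene that rose and also for Rbfox2 and Ptbp2. Ptbp1 is lower in every library labelled -/- than in any flox/flox library.

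Both neuronal Elavl members rose. Elavl2 (ENSMUSG00000008489, GRCm38 chromosome 4, 91250763 to 91400785, minus strand) encodes an RNA-binding protein that appears early in newborn neurons and in some progenitors. Its level was 52.9, 58.8 and 80.5 CPM across flox/flox A to C, against 107, 117 and 171 CPM across -/- A to C. The lowest library labelled -/- lay above the highest flox/flox library, and library C was the highest of each group. This is a log2 fold change of 1.04 ± 0.21 (SE), or 2.06-fold (adjusted p = 0.00839, edgeR).

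Elavl3 (ENSMUSG00000003410, chromosome 9, 22015005 to 22052023, minus strand), also called HuC, is a widely used marker of postmitotic neurons. It measured 62.1, 85.2 and 121 CPM across flox/flox A to C, against 139, 155 and 231 CPM across -/- A to C. Flox/flox C came close to -/- A, and the groups did not overlap. The difference was 0.97 ± 0.27 (log2, SE), or 1.96-fold (adjusted p = 0.0270, edgeR). The call was lost without flox/flox A (adjusted p = 0.0606), flox/flox B (0.0912), -/- B (0.0516) or -/- C (0.0651), and all alternatives gave values between 9.62e-05 and 0.0912.

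The paralogs outside the 10 genes moved unequally. Elavl4, a neuronal Elavl gene near Dmrta2 on chromosome 4, rose by 1.09 ± 0.23 (log2, SE; adjusted p = 0.00993, edgeR), from 81.3 ± 24.1 to 173 ± 40.4 CPM (SD, n = 3). Elavl1, the form made in most cell types (HuR), was at 163 ± 2.95 and 166 ± 4.99 CPM, and its log2 difference of 0.03 ± 0.05 did not pass (adjusted p = 0.666, edgeR). The summed reads per kilobase of Elavl2 and Elavl3 relative to Elavl1 were 0.980, 1.22 and 1.77 across flox/flox A to C, against 2.00, 2.36 and 3.36 across -/- A to C. This ratio needs no library scaling and was higher in each library labelled -/- than in any flox/flox library, by 0.97 on the log2 scale. An exact two-sided permutation test gave p = 0.1, the smallest that 3 libraries against 3 allow.

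**Figure D2:**
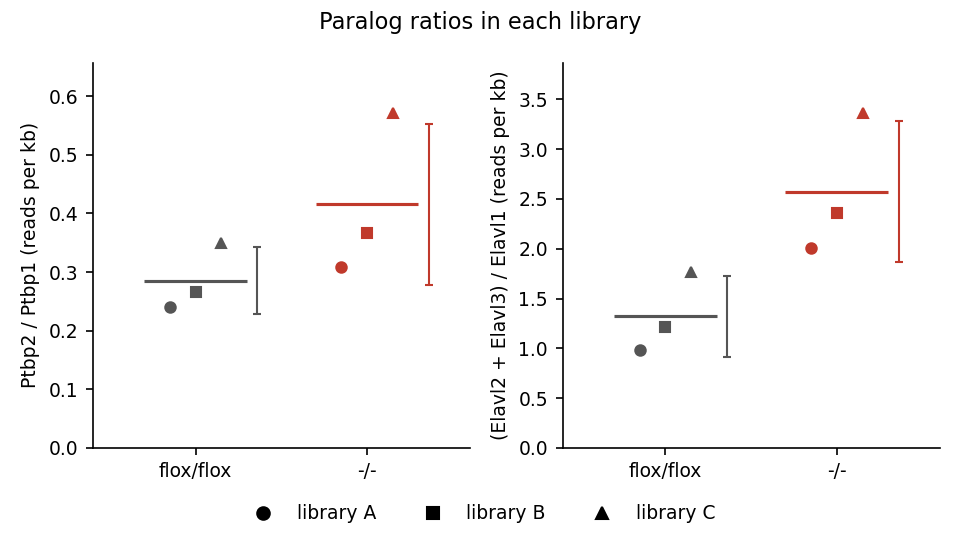
Ratios of reads per kilobase of exon in each library (linear axes from 0): Ptbp2 over Ptbp1 (left) and Elavl2 plus Elavl3 over Elavl1 (right). Points are libraries A, B and C, lines are means and bars 1 SD. The Elavl ratio does not overlap between genotypes (at most 1.77 against at least 2.00), whereas the Ptbp ratio does (flox/flox C at 0.350 against -/- A at 0.309).

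Of the Rbfox genes, Rbfox1 and Rbfox3 rose from low levels, and the difference of the more abundant Rbfox2 did not pass. Rbfox proteins bind UGCAUG and related motifs. Rbfox3 (ENSMUSG00000025576, chromosome 11, 118489762 to 118911597, minus strand) encodes the antigen NeuN of maturing neurons. It measured 5.78, 6.19 and 12.2 CPM across flox/flox A to C, against 15.9, 17.2 and 26.4 CPM across -/- A to C. Flox/flox C stood above the other control libraries, and the groups did not overlap.

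The difference of Rbfox3 was 1.30 ± 0.32 (log2, SE), or 2.46-fold (adjusted p = 0.0176, edgeR). Rbfox3 is the member on chromosome 11, and with the offset of 0.516 taken out its difference was 0.78, which did not pass (adjusted p = 0.0992, edgeR). The call was also lost without flox/flox A (0.0509) or flox/flox B (0.0700), and all alternatives lay between 0.000176 and 0.0992.

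Rbfox1 (ENSMUSG00000008658, chromosome 16, 5885355 to 7411526, plus strand) is a splicing regulator of neurons, heart and muscle. It was the least abundant member, at 1.72, 0.988 and 2.19 CPM across flox/flox A to C, against 3.20, 2.75 and 5.35 CPM across -/- A to C, which rest on 26 to 152 reads. All libraries labelled -/- were above all controls. Its difference was 1.19 ± 0.35 (log2, SE), or 2.29-fold (adjusted p = 0.0323, edgeR). Without flox/flox A, flox/flox B or -/- C the adjusted p was 0.0729, 0.0953 and 0.0684, and its range under every alternative run was 0.00201 to 0.0953.

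Rbfox2 (ENSMUSG00000033565, chromosome 15, 77078990 to 77307004, minus strand) is made in many tissues, progenitors included. It measured 221, 212 and 228 CPM across flox/flox A to C, against 216, 223 and 301 CPM across -/- A to C. Only -/- C stood above the control libraries. The log2 difference of 0.16 ± 0.12 (SE) did not pass (adjusted p = 0.346, edgeR), and it was 0.0056 without -/- C.

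Both Nova genes rose and kept their calls whichever library was left out. Nova1 (ENSMUSG00000021047, chromosome 12, 46694517 to 46818929, minus strand), made above all in hindbrain and spinal cord, was at 45.3, 48.7 and 60.4 CPM across flox/flox A to C, against 86.9, 98.4 and 143 CPM across -/- A to C. Its difference was 1.09 ± 0.19 (log2, SE), or 2.13-fold (adjusted p = 0.00497, edgeR). Every library labelled -/- exceeded every control, with -/- C the highest.

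Nova2 (ENSMUSG00000030411, chromosome 7, 18925888 to 18965319, plus strand), the main form of the developing cortex, measured 105, 124 and 134 CPM across flox/flox A to C, against 187, 199 and 240 CPM across -/- A to C. The groups were separated, and the difference of 0.78 ± 0.12 (log2, SE), or 1.72-fold, was the smallest among the members that rose (adjusted p = 0.00269, edgeR). Of its exonic bases, 31.7% lie under exons of Gm26821 on the other strand, which rose by 0.77. Whether the counting used strand is not given in the sources used here, so reads of that pair cannot be told apart.

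Srrm4 (ENSMUSG00000063919, chromosome 5, 116439275 to 116591817, minus strand), also called nSR100, had the largest fitted rise of the 10 genes with all libraries. Without flox/flox C, Rbfox3 was at 1.73 and Srrm4 at 1.72 (log2), so that rank is not firm. Srrm4 measured 37.0, 46.7 and 69.2 CPM across flox/flox A to C, against 118, 133 and 160 CPM across -/- A to C. The gap between the groups exceeded the range within either group. The difference was 1.43 ± 0.22 (log2, SE), or 2.69-fold (adjusted p = 0.00285, edgeR), and between 1.24 and 1.72 with single libraries left out. Its paralog Srrm3, which also promotes microexons, rose 2.09-fold from 9.49 ± 2.16 to 19.8 ± 5.23 CPM (SD, n = 3), with an adjusted p of 0.00969 by edgeR. The antisense gene Srrm4os, which covers 0.784% of the exonic bases of Srrm4, was at no more than 13.3 CPM.

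**Figure D3:**
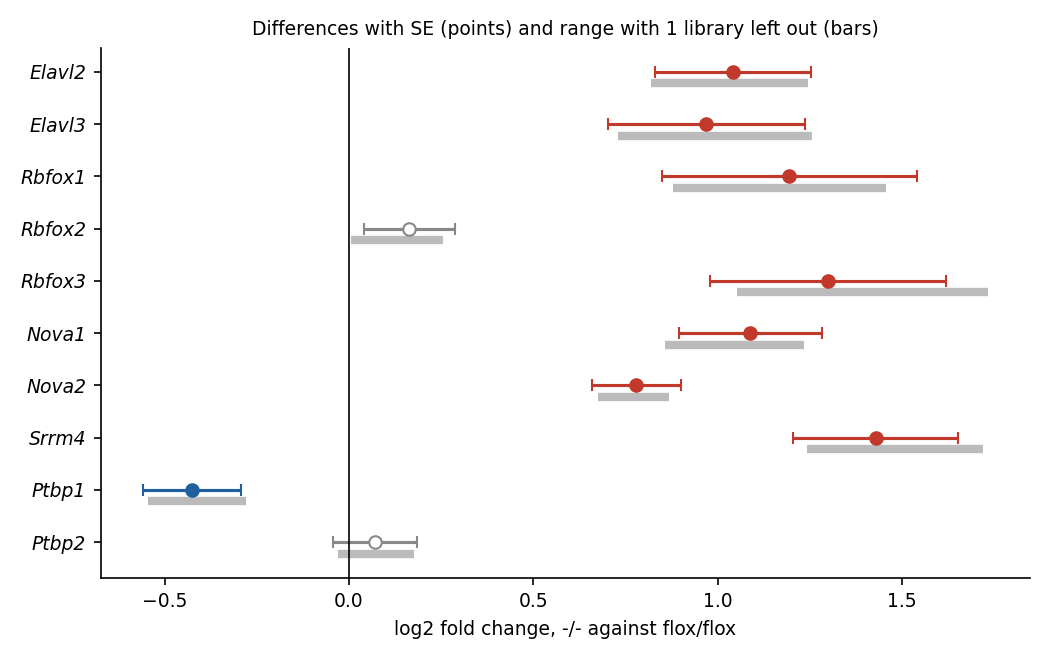
Log2 fold change of each gene, libraries labelled -/- against flox/flox (horizontal axis). Points with error bars are the fitted value and its SE, filled where the adjusted p was under 0.05, and grey bars span the values with 1 library left out. Srrm4 is farthest to the right at 1.43, and Ptbp1 lies below 0 at -0.43.

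Ptbp1, the progenitor form of the polypyrimidine tract binding proteins, fell modestly, and the difference of Ptbp2, the neuronal form, did not pass. Ptbp1 (ENSMUSG00000006498, chromosome 10, 79854427 to 79864771, plus strand) measured 453, 431 and 386 CPM across flox/flox A to C, against 366, 327 and 252 CPM across -/- A to C. Here library C was the lowest of each group, and the gap between flox/flox C and -/- A was small. The difference was -0.43 ± 0.13 (log2, SE), or 1.34-fold lower (adjusted p = 0.0415, edgeR). The call was lost without flox/flox A (adjusted p = 0.113), flox/flox B (0.117) or -/- B (0.0970), and the difference was -0.28 without -/- C. Over all alternatives the adjusted p lay between 0.00233 and 0.117.

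Of the exonic bases of Ptbp1, 20.7% lie under exons of Plppr3, Gm17134 or E130317F20Rik, all on the other strand. Plppr3 rose by 0.78 and E130317F20Rik by 0.62, and Gm17134 fell by 0.45 on the log2 scale. Without the strand setting, the share of these genes' reads within the Ptbp1 count is not known.

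Ptbp2 (ENSMUSG00000028134, chromosome 3, 119718742 to 119784466, minus strand) was at 211, 222 and 262 CPM across flox/flox A to C, against 219, 232 and 279 CPM across -/- A to C. The groups overlapped, and the spread within a genotype exceeded the gap between genotypes. Its log2 difference was 0.07 ± 0.11 (SE; adjusted p = 0.664, edgeR), and -0.029 without -/- C. Ptbp3, a paralog found in blood cells and other tissues, fell from 109 ± 0.143 to 75.9 ± 2.69 CPM (SD, n = 3), by 0.52 on the log2 scale (adjusted p = 0.000609, edgeR).

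The exchange of paralogs was read as the ratio of Ptbp2 to Ptbp1 reads per kilobase. The ratio was 0.240, 0.266 and 0.350 across flox/flox A to C, against 0.309, 0.366 and 0.571 across -/- A to C. Per kilobase of exon, Ptbp1 thus stayed above Ptbp2 in all 6 libraries, and the groups overlapped. Without length scaling, only -/- C held more Ptbp2 than Ptbp1 (279 against 252 CPM). The log2 ratio was higher by 0.51 in the libraries labelled -/-, and an exact two-sided permutation test gave p = 0.2, where the smallest possible is 0.1. Between libraries of the same letter it was higher by 0.36 (A), 0.46 (B) and 0.71 (C), thus in 3 of 3 pairs, and an exact sign-flip permutation test over the pairs gave p = 0.25, the smallest that 3 pairs allow. It was 0.26 higher without -/- C and 0.70 without -/- A.

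Per kilobase of exon, the levels spanned a wide range in both genotypes. In the flox/flox libraries Rbfox1 was lowest (0.371 ± 0.138 CPM per kilobase, SD, n = 3), followed by Rbfox3 (1.39 ± 0.621), Srrm4 (5.87 ± 1.90), Nova1 (5.89 ± 0.903), Elavl2 (7.71 ± 1.75), Elavl3 (13.0 ± 4.32), Nova2 (14.5 ± 1.76), Ptbp2 (25.2 ± 2.91), Rbfox2 (27.1 ± 0.996) and Ptbp1 (89.3 ± 7.21). Srrm4 and Nova1, Elavl3 and Nova2, and Ptbp2 and Rbfox2 differed by less than the larger SD of the pair. In the libraries labelled -/- the order was Rbfox1 (0.856 ± 0.315), Rbfox3 (3.41 ± 0.980), Nova1 (12.5 ± 3.40), Srrm4 (15.8 ± 2.45), Elavl2 (15.9 ± 4.13), Nova2 (24.9 ± 3.36), Elavl3 (25.4 ± 7.09), Ptbp2 (26.5 ± 3.46), Rbfox2 (30.3 ± 5.81) and Ptbp1 (66.5 ± 12.2). There, neighbours in the order within the set Nova1, Srrm4 and Elavl2 differed by less than the larger SD of the pair. So did neighbours within the set Nova2, Elavl3, Ptbp2 and Rbfox2. Lengths are of all annotated exons together, so a gene with many unused exons reads low.

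The libraries of a genotype were unequal in a shared way. Library C was the highest of the flox/flox group and of the -/- group for all 7 genes that rose. The same held for Rbfox2 and Ptbp2, which did not pass, so this order is not particular to the genes that rose. How many of all tested genes share it was not counted. Relative to the flox/flox mean, Elavl3 stood at -0.47, -0.017 and 0.49 (log2) across flox/flox A to C, against 0.69, 0.85 and 1.42 across -/- A to C. The mean of 22 neuron markers moved alike, at -0.29, -0.05 and 0.34 across flox/flox A to C, against 0.77, 0.91 and 1.49 across -/- A to C. Nova2 had a narrower spread, from -0.20 to 0.15 in the controls and from 0.63 to 0.99 in the libraries labelled -/-.

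**Figure D4:**
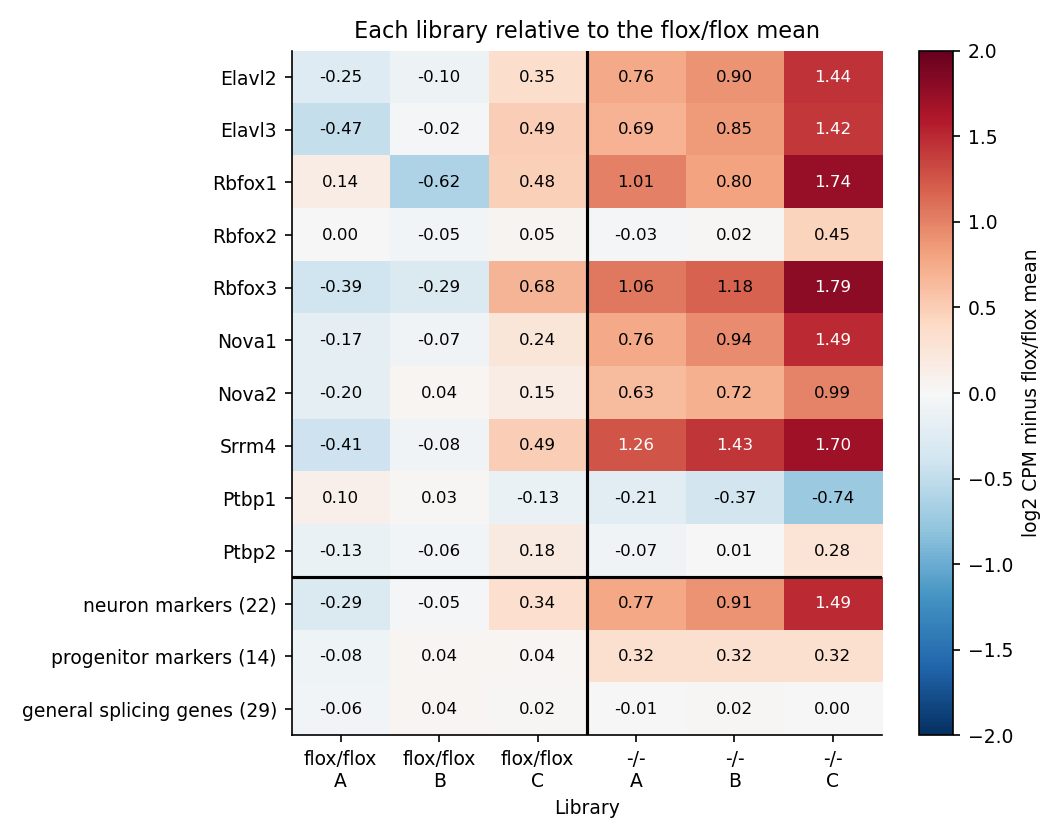
Log2 CPM of each gene in each library minus its flox/flox mean (colour and printed value), with the means of 22 neuron markers, 14 progenitor markers and 29 general splicing genes below the line. Columns are libraries. The genes that rose and the neuron markers are reddest in -/- C, while the general splicing genes stay between -0.06 and 0.04.

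Markers of neurons rose with the members. Of 22 listed markers, 17 rose and 0 fell, with a median log2 fold change of 0.81, and 15 that rose are not on chromosome 11. Leaving out flox/flox B left 8 that rose. Their summed level ran from 3721 to 5379 CPM in the controls and from 6148 to 9662 CPM in those labelled -/-. The strongest by adjusted p were Nsg2 (3.88 ± 0.41, log2, SE), a vesicle protein of young neurons, Mapt (1.79 ± 0.27), the tau gene, and Syt4 (2.07 ± 0.31), a synaptotagmin. Nsg2 and Mapt are on chromosome 11. The part of neuron number in the rises of the splicing regulators was not tested.

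Markers of neural progenitors, the labelled cell type, were present in every library and split in direction. Of 14, 6 rose and 4 fell, and the sum was between 4459 and 5006 CPM in the controls and between 4633 and 5103 CPM in those labelled -/-. Without flox/flox B 2 fell, and without -/- B 1 fell. Pax6, Top2a (on chromosome 11) and Notch1 had the smallest adjusted p among the rises, with log2 values of 0.59, 0.61 and 1.12. With the chromosome 11 offset Top2a did not pass. Sox2, Hes1 and Vim led the falls, at -0.37, -0.57 and -0.41. The call for Hes1 was lost without -/- B (adjusted p = 0.0505), and that for Vim without flox/flox B (0.0684) or -/- B (0.0622), by edgeR.

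Rbfox1 and members of the Celf and Mbnl families are also made in muscle, and Elavl2 in germ cells, so markers of these cells were read. The 8 muscle markers summed to between 10.6 and 12.1 CPM in the controls and between 4.54 and 6.25 CPM in those labelled -/-. Of the 4 tested, 0 rose and 2 fell. Myod1 and Myog, which define muscle precursors, were at or near 0, with means of at most 0.063 and 0.013 CPM in either genotype. The 4 germ cell markers summed to at most 4.49 CPM in the controls and at most 2.92 CPM in the libraries labelled -/-. Both tested germ cell markers, Ddx4 and Sycp3, fell, and 0 did without flox/flox A or without flox/flox B. The part of these cells in the values of Rbfox1 and Elavl2 was not tested.

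Glial markers (9) summed to 65.4 to 79.0 CPM in the controls and 81.3 to 100.1 CPM in those labelled -/-, and 2 of 7 tested rose (0 without flox/flox B). Gfap and S100b had means of at most 0.258 and 0.126 CPM. Epithelial markers (5) ran from 273 to 385 CPM and from 97.2 to 168 CPM, and 3 fell. Pluripotency markers (6) ran from 95.7 to 102 CPM and from 58.5 to 81.3 CPM, and 3 fell. Neural crest markers (4) ran from 16.9 to 19.9 CPM and from 20.6 to 35.5 CPM, and 1 of 3 tested, Tfap2a, rose (2 without flox/flox A or -/- A, or with no filter on low counts). The part of these cells in the results was not tested.

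Paralogs of the members and other splicing regulators, both tissue-restricted and broadly made, moved in both directions. Of 26 genes, 9 rose and 7 fell, with a median of 0.06. The smallest adjusted p among the rises were those of Rbm24, Msi2 and Srrm3. Rbm24, an RNA-binding protein best known from muscle, rose 2.53-fold to 8.30 ± 2.17 CPM (SD, n = 3). Msi2, a Musashi protein of progenitors on chromosome 11, rose by 0.38 and was at -0.14 with the offset, where it did not pass. Celf3, Celf4, Celf5 and Celf6, named after their values were seen, are neural members of the Celf family of splicing regulators. They rose 2.62-fold, 2.44-fold, 1.67-fold and 1.82-fold. Celf1 and Celf2 of the same family, also named after their values were seen, did not pass, at log2 differences of -0.05 and 0.19. The call for Celf3 was lost without flox/flox B (adjusted p = 0.0805) or -/- C (0.0539), and that for Celf6 without flox/flox A (0.0730), flox/flox B (0.0779), -/- B (0.0668) or -/- C (0.0744), by edgeR.

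The 7 genes of this list that fell were Mbnl2, Mbnl3, Khdrbs3, Esrp1, Esrp2, Ptbp3 and Raver2, of which Mbnl3, Khdrbs3, Esrp2 and Raver2 were named after their values were seen. Mbnl2, a muscleblind protein that promotes mature splice forms, fell 2.18-fold from 76.7 ± 8.74 to 35.1 ± 4.56 CPM (SD, n = 3; adjusted p = 0.000734, edgeR). Mbnl3 of the same family fell by 0.96 on the log2 scale, a call lost without flox/flox B (adjusted p = 0.0521, edgeR), and Khdrbs3, a STAR-family splicing regulator made in brain and other tissues, fell by 0.61. Esrp1 and Esrp2, regulators of epithelial splicing, fell 2.00-fold and 2.05-fold from 11.1 and 10.3 CPM, beside the lower epithelial markers above. Raver2, which encodes a protein that binds Ptbp1, fell by 0.69 on the log2 scale.

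General splicing factors gave a contrast in size. Of 29 genes of SR proteins, hnRNPs and spliceosome subunits, 3 rose, 2 fell and 24 did not pass, with a median of -0.02. Prpf8, the core spliceosome protein, and Hnrnph1 rose by 0.56 and 0.37, both on chromosome 11, and with the offset were at 0.04 and -0.15 and did not pass. Srsf4 rose by 0.16, Hnrnpd fell by 0.39 and Hnrnpf by 0.27 on the log2 scale. The call for Srsf4 was lost without any single library other than flox/flox C, without the filter on low counts and with DESeq2 (adjusted p from 0.0571 to 0.163), and that for Hnrnpf without flox/flox A, B or C or -/- B (up to 0.101, edgeR). Without flox/flox A, flox/flox B or -/- B, 1 rose and 1 fell, without -/- C 1 rose, and without flox/flox C 1 fell. With the offset 1 rose and 4 fell.

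Transcripts that PTB proteins are known to hold down in non-neuronal cells, by intron retention or by splicing that leads to decay, were higher. All 5 listed genes rose, with a median of 0.80, and 3 of them lay outside chromosome 11. Sv2a, of synaptic vesicles, was at 7.74, 10.9 and 14.4 CPM across flox/flox A to C, against 25.6, 29.1 and 47.9 CPM across -/- A to C. The genotypes did not overlap, with a difference of 1.64 ± 0.29 (log2, SE; adjusted p = 0.00497, edgeR).

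Kif5a, a neuronal kinesin, rose 1.73-fold. Its call was lost without flox/flox A, flox/flox B, -/- B or -/- C, with adjusted p of 0.0648 to 0.0994 by edgeR, and 3 of the 5 genes rose in each case. Dlg4, the postsynaptic scaffold PSD-95, and Vamp2, a vesicle SNARE, rose by 0.87 and 0.80. Both lie on chromosome 11, and with the offset were at 0.35 and 0.28 and did not pass (adjusted p = 0.0862 and 0.117, edgeR). These genes are also expressed as neurons mature, and neuron markers rose alongside. The part of PTB proteins or of neuron number in these rises was not tested.

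Rest and the host genes of the microRNA miR-124 moved in opposite directions. Rest, which represses neuronal genes including Srrm4 and the miR-124 hosts, was at 114, 93.6 and 87.4 CPM across flox/flox A to C, against 60.4, 58.2 and 46.9 CPM across -/- A to C. All libraries labelled -/- lay below all controls. The difference was -0.83 ± 0.13 (log2, SE; adjusted p = 0.00269, edgeR). The microRNA miR-124 is known to target Ptbp1 transcripts.

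Mir124-2hg was at 18.8, 32.0 and 44.6 CPM across flox/flox A to C, against 118, 134 and 206 CPM across -/- A to C, a 4.81-fold rise (adjusted p = 0.00220, edgeR). Mir124a-1hg rose 2.75-fold, from 24.9 ± 14.1 to 68.3 ± 24.9 CPM (SD, n = 3; adjusted p = 0.0392, edgeR). Its call was lost without flox/flox A (0.0543), flox/flox B (0.113), -/- B (0.0929) or -/- C (0.0992), so that 1 host rose in each case. The mature microRNA was not measured in these libraries of poly(A) RNA.

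The other genes of this list moved less. Ctdsp1 and Ctdsp2, small phosphatases that work with Rest, fell 1.46-fold and 1.23-fold, and Ctdspl had a log2 difference of 0.025. Ctdsp2 was not called without flox/flox A, flox/flox B, -/- B or -/- C (adjusted p from 0.0713 to 0.109, edgeR). The corepressors Rcor1, Rcor2 and Rcor3 were at log2 differences of -0.08, 0.25 and -0.23 and did not pass. Rcor2, when the fit was blocked on the column letter, did pass (adjusted p = 0.0150, edgeR), as it did without the filter on low counts (0.0346) or without -/- A (0.0372). In all, 2 of the 9 genes rose and 3 fell, with a median of -0.08.

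**Figure D5:**
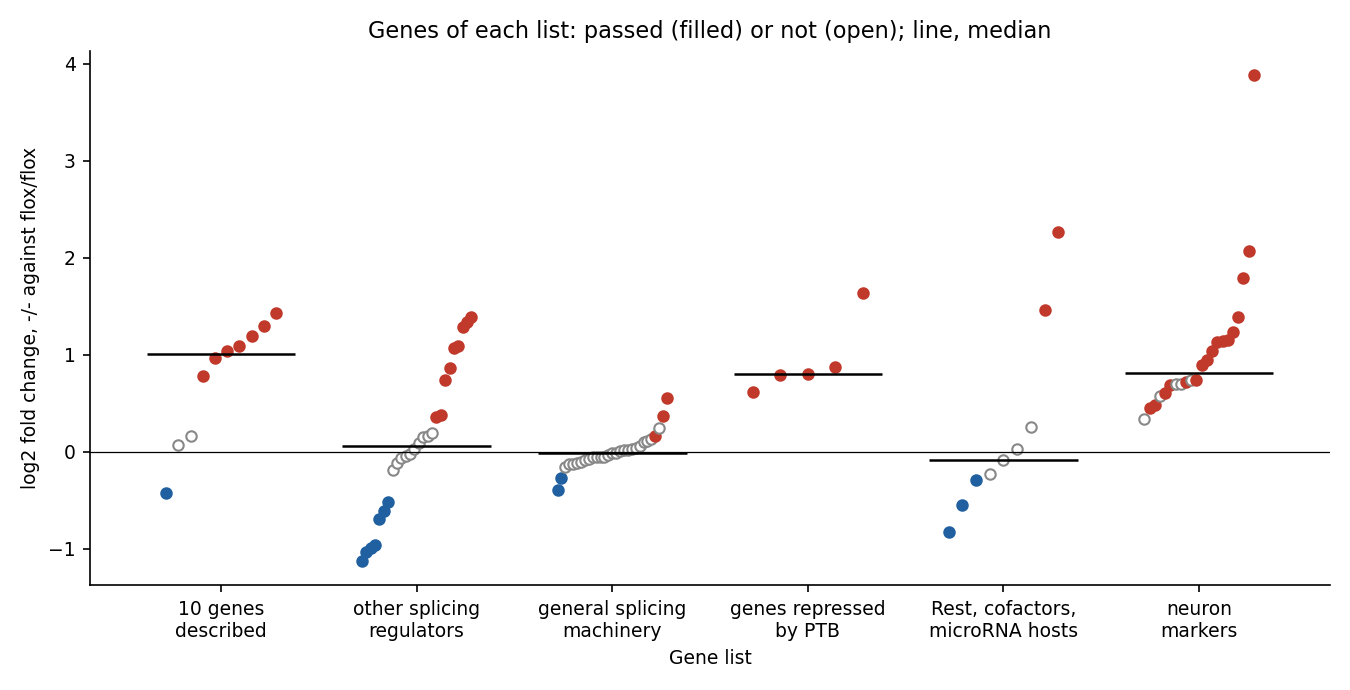
Log2 fold change, libraries labelled -/- against flox/flox (vertical axis), of the 10 genes and of 5 gene lists (horizontal axis). Each point is a gene, filled red or blue where it rose or fell and open where it did not pass, and horizontal lines are medians. The medians of the 10 genes (1.00), of genes repressed by PTB (0.80) and of neuron markers (0.81) stand above those of the other lists, which lie between -0.08 and 0.06.

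Genes whose profile over the 6 libraries was nearest to that of a member were found among 13836 tested genes with a mean of at least 5 CPM, by the root mean square difference of centred log2 CPM. For Elavl3, Ina, a neuronal intermediate filament, was among the 2 nearest (0.0423 log2 units) and rose by 0.94. For Ptbp1 the 2 nearest were Slc4a4, a bicarbonate transporter, and the processed pseudogene Gm15163 (0.0300 and 0.0330), and for Ptbp2 Mir6944 and the histone methyltransferase gene Kmt5b (0.0246 and 0.0259). Slc4a4 and Gm15163 fell by 0.43 and 0.46 on the log2 scale. The call for Ina was lost without the same libraries as that for Elavl3 (adjusted p up to 0.0941, edgeR). Gm15163 was not called without flox/flox A, flox/flox B or -/- B (up to 0.110), and Slc4a4 without any single library other than -/- A (up to 0.139), without the filter on low counts (0.0524) or with the offset (0.0507). The differences of Mir6944 and Kmt5b, like that of Ptbp2, did not pass.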

How the data were processed

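RNA of 6 libraries, 3 per genotype, was analysed from 1 table of raw read counts per Ensembl gene, deposited by the authors. The tools named in the submitters' processing notes are BWA (0.5.9) and featureCounts (1.4.6), and the build is mm10 (GRCm38). How strand, annotation and marked duplicates were handled in counting is not stated in these sources. Columns carry a letter and not the labels' replicate number, so they were assigned to a genotype only, and 0 columns were left out. Of 48526 identifiers, 48144 had a symbol in GENCODE M21, and the others held at most 0.182% of a library's counts.

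Counts were tested in R 4.3.3 with edgeR 4.0.16 (filterByExpr with minimum count 10 and minimum total 15, TMM scaling, group alone), and SE is the log2 fold change over the square root of F. The threshold was 0.05. The procedure was checked on counts simulated independently for each gene, with few genes changed. The simulation held no chromosome 11 shift and no order shared among libraries, so it does not cover these. A level of 1 CPM stands for 25.1 to 39.3 reads. The members and lists were chosen with earlier results of these data known. Named are all members, their paralogs, short lists in full, up to 3 genes per direction of longer lists, and the 2 nearest profiles of 3 members (prior count 2), while markers of other cell types are mostly given as counts and sums, and 2 genes that this rule names are not reported here. Alternatives were DESeq2 size factors, DESeq2 1.42.0, no filter, each library left out, a chromosome 11 offset and a block on the column letter. Deviations of libraries with the same letter from their group means correlated at 0.275, 0.101 and 0.264 for A, B and C. For libraries of different letters the values ran from -0.298 to 0.0316. The labels name no pairing, so the main fit used group alone. Pairing by letter enters only the block and the sign-flip test.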

Additional observations from a re-analysis of the deposited data

How the results depend on the processing

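The directions of the 8 members called did not change under any alternative run. With DESeq2 size factors, no filter, the DESeq2 test or the replicate block on the column letter (pairing), 7 members rose and 1 fell as before, and the block changed no call of a member. Over the 132 tested genes of the lists, the block added 11 calls and removed 0, among them all 5 neuron markers that had not passed, so that 22 rose, and the named Rcor2 (0.25), Nanog (0.39) and Des (-0.83). The log2 differences of Elavl2, Ptbp1, Srrm4 and Ptbp2 with the replicate block were 1.03, -0.44, 1.46 and 0.07. Their adjusted p with the block were 3.06e-05, 0.00233, 6.88e-05 and 0.260 (edgeR). For the ratios the block leaves the mean difference as it is by construction. With the chromosome 11 offset Rbfox3 was at 0.78 and did not pass. With single libraries left out, between 4 and 7 members rose and 0 or 1 fell. The values ran from 0.73 to 1.26 for Elavl3, 0.88 to 1.46 for Rbfox1, 1.05 to 1.73 for Rbfox3, -0.54 to -0.28 for Ptbp1 and -0.029 to 0.18 for Ptbp2. Over all genes, 7250 were called, 8529 with the replicate block and 4717 without flox/flox B, and 2342 in place of 3571 fell without -/- B. Without flox/flox C, 6846 were called, the most with 1 library left out. Why the number called differs with the library left out was not tested. With the offset the sign turned for 6 of the 132 listed genes, all on chromosome 11, among them Hnrnph1 (-0.15), Msi2 (-0.14), Myh3 (-0.26) and Ngfr (-0.15). With single libraries left out it turned for 14 of the 132, of which 0 had been called. Values of the named genes whose sign turned ran from -0.19 to 0.36 for Cldn6, -0.023 to 0.13 for Ctdspl, -0.019 to 0.15 for Kmt5b, -0.11 to 0.021 for Mbp and -0.028 to 0.18 for Mir6944. The counts cannot resolve spliced forms, and Rbfox1 rests on as few as 26 reads in a library.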
